A study of Mus musculus with 2 samples.

Results

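Fc receptors and the immunoreceptor tyrosine-based activation motif (ITAM) pathway were described in the nucleoplasm of mouse macrophages through 10 genes chosen by name, of 55536 genes in the deposited tables. They were the Fc gamma receptors Fcgr1, Fcgr2b, Fcgr3 and Fcgr4, the lipid receptor Trem2, the ITAM adaptors Fcer1g and Tyrobp, the kinases Syk and Lyn, and the phospholipase Plcg2. All 10 were found by symbol, and all 10 had at least 10 expected counts in both libraries, as did 14596 genes in all.

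Fc gamma receptors bind antibody-coated particles. The activating ones reach the cell interior through the gamma chain encoded by Fcer1g, and TREM2 through DAP12, the product of Tyrobp. Once a Src family kinase such as LYN phosphorylates the paired tyrosines of the ITAM, SYK docks there and activates phospholipase C gamma 2, which raises calcium. FcγRIIB carries a single inhibitory motif (ITIM) instead and recruits phosphatases that oppose this signal.

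The cells were bone-marrow-derived macrophages of C57BL/6J mice, grown from marrow progenitors. A dose of 100 ng/ml lipid A, the TLR4-binding portion of lipopolysaccharide, was given for 12 h, removed for 12 h, and given again at 100 ng/ml for 25 min. Total RNA of the nucleoplasmic fraction, which the labels elsewhere call nuclear, was sequenced after removal of ribosomal RNA in 2 biological replicates that formed 1 group. Sex and age were not collected. Replicate 1 started from 500 ng of RNA and replicate 2 from 1 µg, so replicate number and starting amount cannot be told apart. Both carried 1 donor entry, and the spread between them may be technical. No unstimulated and no cytoplasmic sample was analysed here, so no value below is a response to lipid A, and with bulk RNA fewer cells of a type and less RNA per cell cannot be told apart.

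Over annotated genes the tables totalled 20139537 expected counts in replicate 1 and 19576439 in replicate 2. The 10 genes accounted for 0.229 and 0.258% of these counts, with 95% Wilson intervals of 0.227 to 0.231% and 0.255 to 0.260% that cover counting error only. All 10 macrophage markers, among them Csf1r, Adgre1 and Cd68, reached 1 TPM (transcript abundance per length, scaled to a fixed total) in both libraries. None of 6 B cell, 7 T and NK cell and 7 neutrophil markers did. Of 7 mast cell and basophil markers Hdc did (2.80 ± 0.332 TPM, SD, n = 2), while Fcer1a, Mcpt4 and Tpsb2 were at 0. Of 6 platelet and megakaryocyte markers Pf4 did (22.9 ± 2.09 TPM). Mast cells and the platelet lineage also use Fcer1g and Syk, and their part in the levels of these genes was not tested.

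The motif that gives the pathway its name lies in the adaptors. A reading frame was searched for a tyrosine codon (TAT or TAC), 2 codons of any kind and a leucine or isoleucine codon (TTA or TTG, any codon that begins with CT, or any that begins with AT other than ATG), followed after 6 to 8 codons by the same 4-codon unit. The pattern stood in the annotated reading frames of Fcer1g and Tyrobp and in those of none of the other 8 genes. Over all coding genes, 626 of 21866 held it (2.86%). The coding sequences below are shown because they carry the paired tyrosines, with capitals marking the tyrosine and the leucine or isoleucine codons. They are from GENCODE M21 transcripts (GRCm38), the first on the minus strand across chr1:171229880-171230081 and the second on the plus strand across chr7:30415661-30417391, both with introns spliced out.
Fcer1g-201 ITAM: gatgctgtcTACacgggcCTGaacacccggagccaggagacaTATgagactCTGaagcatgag
Tyrobp-202 ITAM: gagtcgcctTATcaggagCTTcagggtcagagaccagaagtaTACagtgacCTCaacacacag

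The unit spanned codons 65 to 79 of 86 in Fcer1g-201 and 118 to 132 of 140 in Tyrobp-202, with 7 codons between the units in both. In each adaptor it lay near the end of the reading frame.

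The inhibitory receptor was searched for an isoleucine, valine, leucine or serine codon, 1 codon of any kind, a tyrosine codon, 2 of any kind and a leucine, isoleucine or valine codon. This shorter pattern occurred in 10641 of the 21866 coding genes (48.7%), and in these data it serves only to show the known motif. It also stood in annotated reading frames of Fcgr1, Fcgr4, Fcer1g, Tyrobp, Lyn and Plcg2, so it does not set Fcgr2b apart. In Fcgr2b-202 it spanned codons 270 to 275 of 293, on the minus strand at chr1:170961062-170961097, with the 3 defining codons in capitals.
Fcgr2b-202 ITIM: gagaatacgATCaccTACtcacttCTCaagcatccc

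By TPM, all 10 genes lay well above the typical coding gene. The median over them was 105 and 132 TPM in the libraries, on average 119 ± 19.4 TPM (SD, n = 2). The 11370 detected protein-coding nuclear genes had medians of 9.33 and 7.81 TPM. Plcg2, the lowest of the 10 by mean TPM, still stood at percentile 79.5 of these genes. On TMM-normalised CPM, which is not divided by length, the median over the 10 was 183 and 203 CPM, against 18.2 and 18.4 CPM. All 10 were above these medians there too, but Fcgr4 by less in replicate 1 (26.9 CPM), as was Fcgr3 in both libraries (39.7 and 37.0 CPM).

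Among the receptors, the inhibitory Fcgr2b was the highest by gene TPM. Fcgr2b (ENSMUSG00000026656.15, chromosome 1, 170958617 to 170976547) had 247 and 215 TPM in replicates 1 and 2, from 7387 and 7007 expected counts. Its mean of 231 ± 22.2 TPM (SD, n = 2) ranked 131 among detected coding genes.

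Fcgr1 (ENSMUSG00000015947.10, chromosome 3, 96282909 to 96293969), the high-affinity receptor FcγRI, had 107 and 188 TPM in replicates 1 and 2. Its counts were 5036 and 9156, and its mean of 148 ± 57.4 TPM ranked 269. Replicate 2 was clearly the higher library for this receptor, and by gene TPM Fcgr1 stayed below Fcgr2b within each library. On the TMM scale, in CPM and without division by length, Fcgr1 was below Fcgr2b in replicate 1 (241 against 354) and above it in replicate 2 (487 against 372).

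The low-level activating receptors exchanged order between the libraries. Fcgr4 (ENSMUSG00000059089.4, chromosome 1, 171018920 to 171029761), a mouse receptor for IgG2 antibodies, had 27.3 TPM and 561 counts in replicate 1 and 53.0 TPM and 1234 counts in replicate 2. Fcgr3 (ENSMUSG00000059498.13, chromosome 1, 171051174 to 171064935), which binds IgG1 and IgG2 complexes with low affinity, had 37.7 TPM and 829 counts in replicate 1 and 27.9 TPM and 697 counts in replicate 2. Fcgr3 was thus above Fcgr4 in replicate 1 and below it in replicate 2, with means of 32.8 ± 6.91 and 40.1 ± 18.2 TPM.

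Trem2 (ENSMUSG00000023992.14, chromosome 17, 48346401 to 48354147), a receptor for lipids and lipoproteins, had 101 and 87.9 TPM in replicates 1 and 2, on average 94.5 ± 9.37 TPM. Its 3017 and 2923 counts differed little between the libraries.

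Fcer1g was the highest of the 10 genes by TPM in both libraries. Fcer1g (ENSMUSG00000058715.11, chromosome 1, 171229572 to 171234365) had 514 and 453 TPM in replicates 1 and 2, on average 484 ± 43.2 TPM, rank 41 among detected coding genes. Tyrobp (ENSMUSG00000030579.10, chromosome 7, 30413760 to 30417585) had 103 and 137 TPM in replicates 1 and 2, on average 119.9 ± 23.9 TPM. The lower library of Fcer1g was above the higher library of Tyrobp. Both mRNAs are short, and their TPM came from 4605 and 4706 counts for Fcer1g and from 770 and 1214 counts for Tyrobp.

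Of the kinases, Syk was above Lyn in both libraries. Syk (ENSMUSG00000021457.14, chromosome 13, 52583173 to 52648792), which binds the phosphorylated ITAM, had 199.8 and 171 TPM in replicates 1 and 2, on average 185 ± 20.4 TPM. It took the most counts of the 10 genes, 15893 and 14700. Lyn (ENSMUSG00000042228.14, chromosome 4, 3678115 to 3813122), a Src family kinase that phosphorylates both ITAMs and ITIMs, had 129.6 and 128 TPM, on average 129 ± 1.03 TPM. Plcg2 (ENSMUSG00000034330.10, chromosome 8, 117498291 to 117635142), whose product cleaves the membrane lipid PIP2, had 26.7 and 26.9 TPM, on average 26.8 ± 0.0990 TPM. These narrow TPM ranges of Lyn and Plcg2 do not by themselves show close replication, because counts rose from 5931 to 6402 for Lyn and from 2166 to 2405 for Plcg2 while the total fell.

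**Figure D1:**
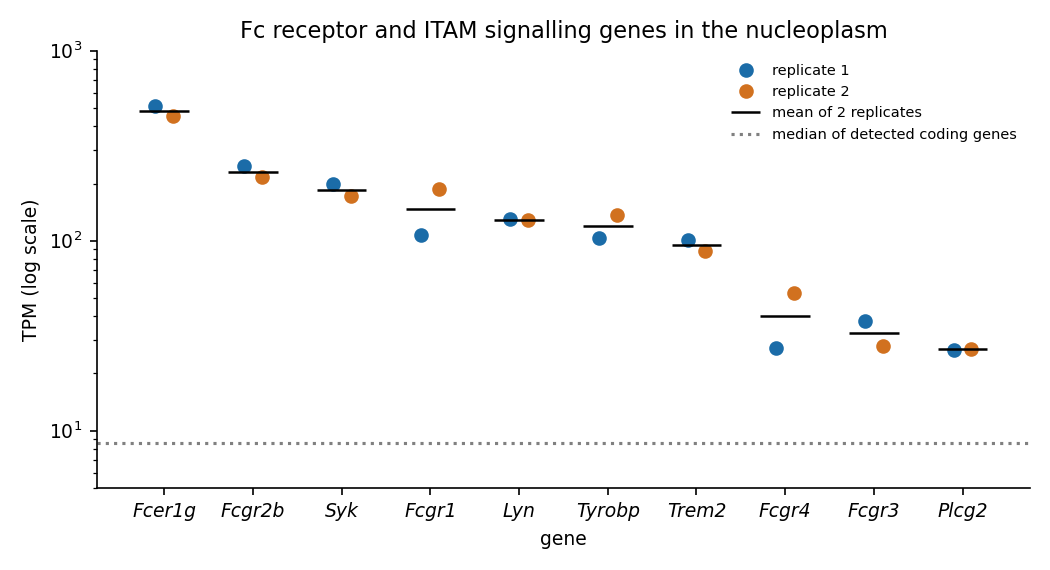
TPM of the 10 genes on a log scale, with a point for each of the 2 libraries, a bar at their mean and a dotted line at the median of detected coding genes. Fcer1g is the highest gene in both libraries, every point lies above the dotted line, and Fcgr1 and Fcgr4 show the widest gaps between the libraries.

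In order of mean TPM the genes ran Fcer1g, Fcgr2b, Syk, Fcgr1, Lyn, Tyrobp, Trem2, Fcgr4, Fcgr3 and Plcg2. Of the 9 neighbouring pairs, 5 did not overlap between libraries and 4 did. The overlapping pairs were Syk with Fcgr1, Fcgr1 with Lyn, Lyn with Tyrobp, and Fcgr4 with Fcgr3, so the order within each of these is not resolved by 2 libraries. The gap between Fcgr3 and Plcg2 was small, 27.9 TPM in the lower library of Fcgr3 against 26.9 TPM in the higher library of Plcg2. It depends on the quantification. In a separate deposited table in the kallisto layout, Plcg2 was above Fcgr4 in replicate 1 (17.9 against 16.9 TPM) and above Fcgr3 in replicate 2 (4.45 against 4.22 TPM).

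Between the libraries, the activating receptors Fcgr1 and Fcgr4 were the genes that differed most, both higher in replicate 2. The ratio was taken as log2 of (TPM + 1) in replicate 2 over replicate 1, with no test, since each side holds 1 library. The median detected gene lay at -0.21 on this scale, so values are given relative to it. Fcgr4 lay 1.14 above the median gene, at percentile 98.7 of detected genes, and Fcgr1 1.02 above it, at percentile 98.0. Tyrobp followed at 0.61. The other 7 genes lay between -0.21 for Fcgr3 and 0.22 for Plcg2.

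On the unadjusted TPM ratio 0 of the 10 genes reached 2-fold in either direction, against 3.81% of the 14596 detected genes. Fcgr4 missed it narrowly, with a log2 ratio of 0.93, and Fcgr1 had 0.81. Without the added 1, their folds were 1.94 and 1.76. At 1.5-fold the 2 genes past the threshold were again Fcgr1 and Fcgr4, against 20.4% of detected genes. After TMM normalisation, which sets the median gene near 0 and does not divide by length, 2 of the 10 were past 2-fold, against 3.51%. Fcgr4 then had a log2 ratio of 1.26 and Fcgr1 of 1.01, with folds of 2.44 and 2.02 without the added 1. In the separately made kallisto-layout table, rescaled to a fixed total over coding genes, 2 of 10 were past 2-fold against 4.56%, Fcgr1 at a log2 ratio of 1.16 and Fcgr4 at 1.09. Other scalings gave 1 of 10 with DESeq2 size factors (7.38% of genes) and 1 with TPM rescaled over coding genes (6.11%), in each case Fcgr4, and 0 with posterior mean TPM (3.19%). The kallisto-layout table as deposited put 8 of 10 past 2-fold, all lower in replicate 2, but there the median gene lay at -1.57 and 78.4% of genes were past it.

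The unadjusted direction depended on the scaling for Fcgr2b, Fcer1g, Trem2 and Syk. Their log2 ratios lay between -0.22 and -0.18 on TPM and between 0.04 and 0.18 on TMM-normalised CPM, and for Lyn the value went from -0.02 to 0.26. Fcgr1, Fcgr4, Tyrobp and Plcg2 were higher in replicate 2 on both scales, Plcg2 by only 0.01 on TPM, and Fcgr3 was lower on both (-0.42 and -0.10).

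As a share of all expected counts, Fcgr1 went from 0.0250% (95% Wilson interval 0.0243 to 0.0257%) to 0.0468% (0.0458 to 0.0477%) between replicates 1 and 2. Fcgr4 went from 0.00279% (0.00256 to 0.00303%) to 0.00630% (0.00596 to 0.00667%). The intervals of the 2 libraries do not overlap for either gene, but they cover counting error only and hold nothing on how cultures vary. Both genes are shown because they differed most between the libraries. The starting amount was also higher for replicate 2 and cannot be told apart from the replicate. Of the macrophage markers, 2 of 10 were past 2-fold on TPM, both lower in replicate 2, against 3.81% of detected genes, and 0 of 10 on TMM-normalised CPM, against 3.51%. They were Cd14, with 239 and 109 TPM, and Mrc1, with 87.1 and 38.5 TPM, picked out after their values were seen. Their log2 ratios were -1.13 and -1.16 on TPM and -0.81 and -0.61 on TMM-normalised CPM.

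**Figure D2:**
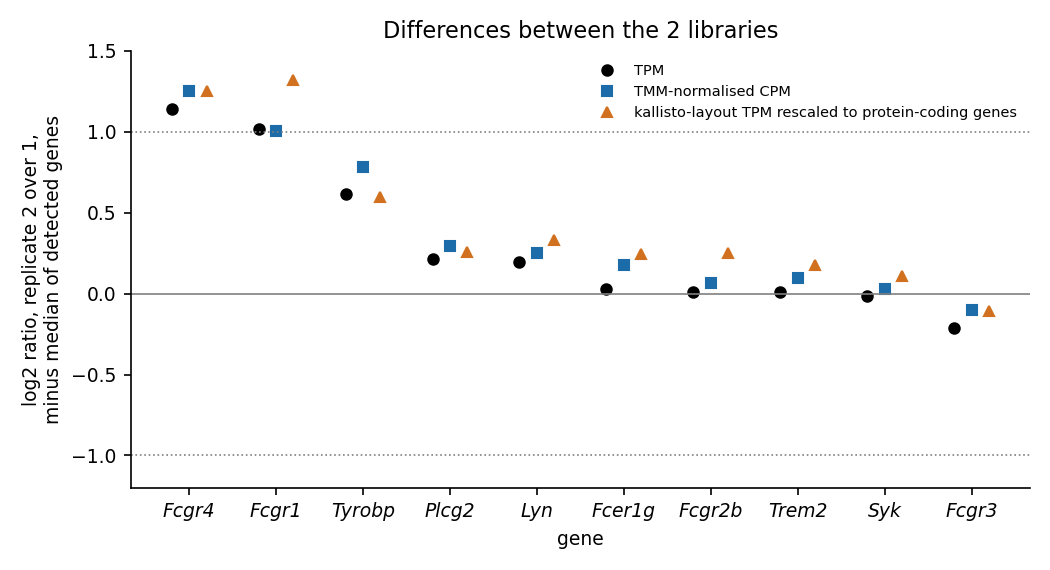
Log2 ratio of replicate 2 over replicate 1 for each gene, minus the median of all detected genes, on TPM, TMM-normalised CPM and rescaled kallisto-layout TPM. Dotted lines mark 2-fold. Fcgr4 and Fcgr1 lie at or above the upper line on all 3 scales, Tyrobp between 0.5 and 1, and the other genes near 0.

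The order of activating and inhibitory Fc gamma receptors by gene differed between the libraries. The summed TPM of Fcgr1, Fcgr3 and Fcgr4 was 172 against 247 for Fcgr2b in replicate 1, and 269 against 215 in replicate 2. The log2 ratio was therefore -0.52 in replicate 1 and 0.32 in replicate 2, on average -0.10 ± 0.60 (SD, n = 2). The libraries disagreed in sign, so no direction is given. When transcripts annotated as coding alone were counted, the ratio was 0.74 in replicate 1 and 1.37 in replicate 2, on average 1.05 ± 0.44, and the activating receptors were above Fcgr2b in both. With 2 libraries the smallest two-sided p that an exact permutation of signs allows is 0.5, for this and the next ratio.

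**Figure D3:**
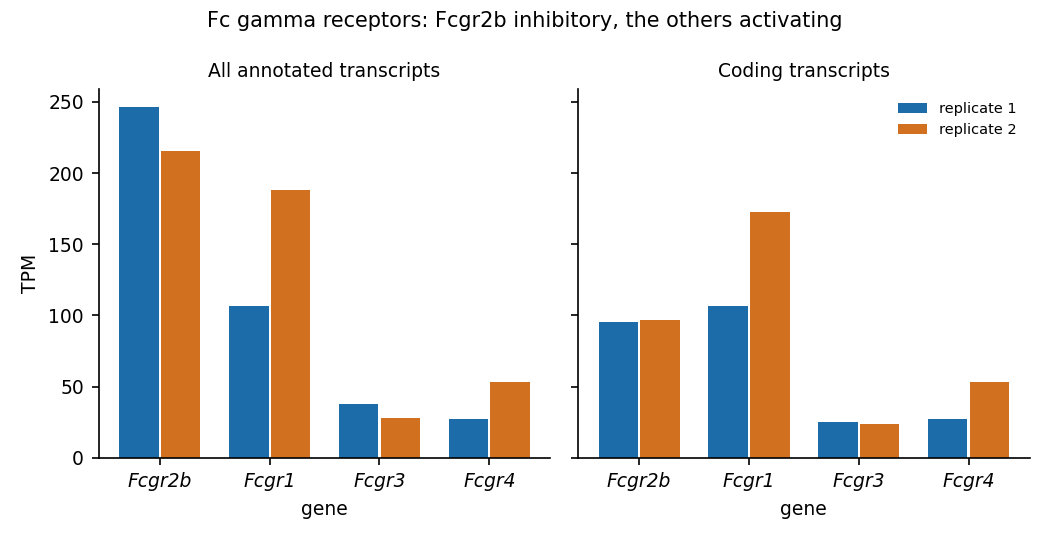
TPM of the 4 Fc gamma receptors in each library, as bars from 0, for all annotated transcripts (left) and for coding transcripts (right). Fcgr2b is the tallest on the left, whereas on the right Fcgr1 is above it in both libraries.

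The adaptors together exceeded the 4 receptors among the 10 genes that pair with them. Fcer1g and Tyrobp summed to 617 TPM against 273 TPM for Fcgr1, Fcgr3, Fcgr4 and Trem2 in replicate 1, and to 590.0 against 357 TPM in replicate 2. The log2 ratio was 1.18 in replicate 1 and 0.72 in replicate 2, on average 0.95 ± 0.32 (SD, n = 2). By expected counts, which are not divided by length, it turned to -1.03 ± 0.30, so the excess holds per length of transcript and not for reads. The 29 other receptors listed around these adaptors, described further on, summed to 1176 and 785 TPM, so the excess is over these 4 receptors alone. They include Csf1r, itself a tyrosine kinase, with 522 and 349 TPM, and Clec7a, which carries its own motif. Their sum is therefore not one of adaptor users alone.

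A part of the nucleoplasmic RNA of these genes belonged to transcripts that are not annotated as coding. Coding transcripts made up 80.1% of the 10 genes' TPM in replicate 1 and 81.4% in replicate 2, on average 80.7 ± 0.913% (SD, n = 2). The genes differed widely in this share. Fcgr4 and Plcg2 have 1 annotated transcript each, which is coding, so no other form of them could be counted.

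By TPM Fcgr2b had the lowest coding share, 38.7% in replicate 1 and 44.8% in replicate 2. Intron-retaining transcripts took 37.7 and 36.0% of its TPM, and the processed transcript Fcgr2b-206, singled out after its values were seen, 23.6 and 19.2%. Of the 802 bases of Fcgr2b-206, 397 (49.5%) are intronic, although it is not annotated as intron-retaining. By counts its coding share was 57.1 ± 1.01%, and that of Trem2 was lower, 47.9 ± 0.730%. The transcript Fcgr2b-205, which retains intron sequence, had 54.4 ± 6.67 TPM, close to the 58.8 ± 10.1 TPM of the coding Fcgr2b-202, and the shorter intron-retaining Fcgr2b-207 had 30.9 ± 4.38 TPM.

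Syk also had abundant intron-retaining forms. Their share of its TPM was 34.3 and 36.0%, and their share of its counts 19.5 ± 0.700%. Syk-204 had 39.5 ± 0.269 TPM and Syk-205 25.5 ± 4.67 TPM, beside 65.4 ± 18.6 TPM for the coding Syk-201 and 51.3 ± 1.90 TPM for the coding Syk-203.

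Fcgr3 varied more between libraries than any other member in this respect. Its intron-retaining transcript Fcgr3-203 held 32.5% of TPM in replicate 1 against 15.0% in replicate 2, with 12.3 and 4.19 TPM. The coding Fcgr3-201 was at 20.1 and 21.4 TPM, so by these point values the gap between libraries in the gene's level lay mostly in the noncoding form. The deposited intervals of Fcgr3-203 overlapped, 5.27 to 17.8 TPM in replicate 1 and 1.94 to 7.54 TPM in replicate 2, so this split is not resolved. Only 8.17% of the bases of Fcgr3-203 are intronic, and the assignment of reads to it rests on those bases and on its ends.

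Trem2 gave the largest gap between units. Its intron-retaining transcript Trem2-203 took 17.3 and 17.1% of TPM but 52.6 and 51.6% of counts, since at 4784 bases it is far longer than the 1088 bases of the coding Trem2-201. Trem2-203 had 16.3 ± 1.73 TPM, beside 59.7 ± 8.83 TPM for Trem2-201 and 18.5 ± 1.18 TPM for Trem2-202. Fcer1g stood at the other end, with 0.924 and 3.51% of TPM in the intron-retaining Fcer1g-202 (10.3 ± 7.88 TPM). Its coding Fcer1g-201 had 465 ± 51.4 TPM.

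Intron-retaining shares of this size are common in these nuclei. Of detected coding genes, 6848 (60.2%) have an annotated intron-retaining transcript, and their median share was 25.7% of TPM (quartiles 13.2 and 41.4%) and 14.9% of counts. Fcgr2b lay at percentile 68.3 of these genes by TPM and 75.3 by counts, and Syk at 65.6 and 57.3. Trem2 lay at 33.3 by TPM and 88.3 by counts, and Fcgr3 at 46.5 and 63.1. Fcer1g was low on both scales, at 5.78 and 8.06.

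**Figure D4:**
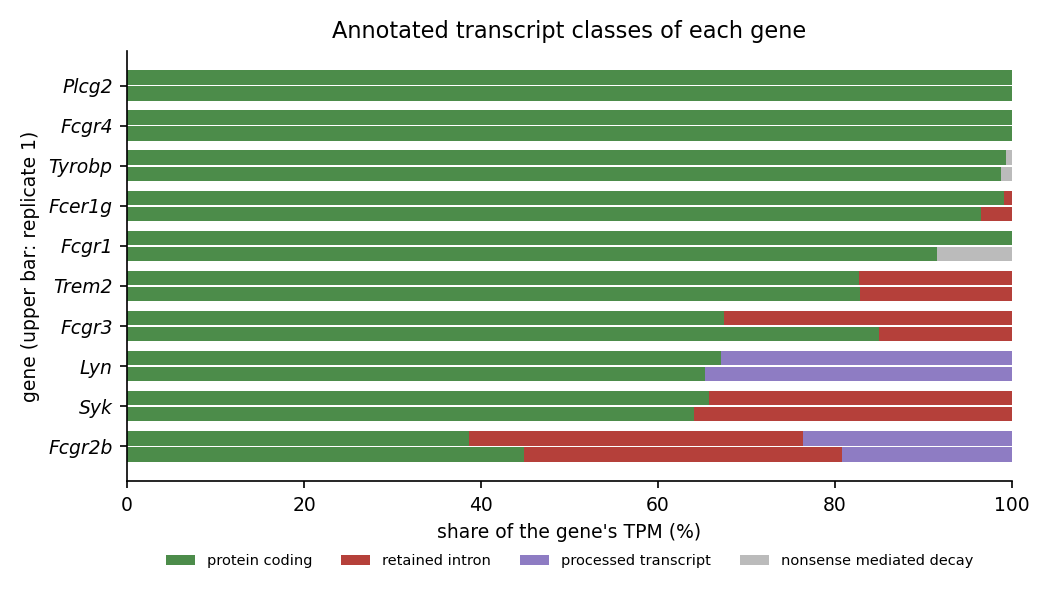
Share of each gene's TPM in annotated transcript classes, as stacked bars that add to 100%, with replicate 1 above replicate 2. Fcgr2b, Syk, Lyn, Fcgr3 and Trem2 carry visible noncoding shares in both libraries, while Plcg2 and Fcgr4 are coding throughout.

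By expected counts, processed transcripts occurred at Fcgr2b and Lyn, and nonsense-mediated-decay transcripts at Fcgr1 and Tyrobp. Lyn has no annotated intron-retaining class, but processed transcripts took 32.9 and 34.6% of its TPM and 6.66 and 7.55% of its counts. Most of this was Lyn-204, with 39.9 ± 0.764 TPM, and 315 of its 687 bases (45.9%) are intronic, although it is not annotated as intron-retaining. For Fcgr1, the nonsense-mediated-decay transcript Fcgr1-202 had 0 and 15.9 TPM in replicates 1 and 2. The coding Fcgr1-201 had 107 and 172 TPM, so it too was higher in replicate 2. Tyrobp was almost wholly coding, with 113 ± 14.8 TPM in Tyrobp-202 and 0 and 11.9 TPM in Tyrobp-201, which has 342 coding bases against 420. The split between these 2 is uncertain, since the deposited interval of Tyrobp-201 in replicate 2 ran from 6.17e-04 to 32.5 TPM.

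At Fcgr2b and Syk an intron read into by an abundant noncoding transcript adjoins the exon that distinguishes the coding isoforms, as noticed after the values were seen. The junctions are shown for that reason, from the GENCODE M21 transcripts, with the last 12 exon bases in capitals and the first 18 intron bases in lower case. In Fcgr2b-205 the transcript enters the intron at chr1:170963466-170965701 on the minus strand and holds 1369 of its 2236 bases. In Syk-204 the intron is at chr13:52623277-52624707 on the plus strand, with 1063 of 1431 bases held. Each of these transcripts also touches another intron, and Fcgr2b-207 and Syk-205 read into introns elsewhere in the genes. A link between the intron and the exon was not tested.
Fcgr2b-205 junction: AGCAGGTTCCAGgttggtggctctctttgg
Syk-204 junction: GCCCATCCCGTGgtaagtattctctgaggc

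Fcgr2b-205 and Syk-204 end inside the intron shown and do not hold its far border. Trem2-203 differs in that it keeps the whole of intron 1, at chr17:48346596-48348456 on the plus strand, 1861 bases long. Both of its borders are read through, shown with exon bases in capitals and intron bases in lower case.
Trem2-203 start of intron: TGCTGATCACAGgtgggaccacaggaggga
Trem2-203 end of intron: tggctgtctcctctgcagCCCTGTCCCAAG

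Coding isoforms of these genes differ by short exons, shown in capitals with 12 flanking bases of the neighbouring exons. The Fcgr2b exon, on the minus strand at chr1:170963325-170963465, encodes part of the cytoplasmic tail upstream of the ITIM in the b1 form and is skipped in b2. The Syk exon is on the plus strand at chr13:52624708-52624776.
Fcgr2b-201 cassette: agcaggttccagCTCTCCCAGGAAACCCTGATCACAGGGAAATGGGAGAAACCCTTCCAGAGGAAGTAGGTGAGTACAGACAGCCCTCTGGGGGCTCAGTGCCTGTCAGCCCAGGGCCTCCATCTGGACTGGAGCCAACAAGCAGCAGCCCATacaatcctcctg
Syk-203 cassette: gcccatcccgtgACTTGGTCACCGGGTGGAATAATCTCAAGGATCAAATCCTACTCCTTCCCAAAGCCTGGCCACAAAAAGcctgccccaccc

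Both Fcgr2b forms were present. The long form, with the 141-base exon, held 45.9 and 31.6% of the coding pair's TPM in the libraries, from 43.8 against 51.6 TPM and 30.4 against 65.9 TPM. The b2 form without it was therefore the higher in both libraries by this TPM. In the kallisto-layout table the long form took 57.6 and 37.8%, so its replicate 1 gives the opposite order. By expected counts, not divided by length, it took 69.4 and 54.8%, the opposite order in both libraries, so no order of the forms is given.

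At Syk the forms with the 69-base exon, Syk-201 and Syk-203, took 97.8 and 95.8% of the coding TPM. Syk-202, which lacks it, also ends differently, with 1749 coding bases against 1887, so its share does not measure that exon alone.

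The adaptor isoform with the ITAM prevailed at Fcer1g. Fcer1g-201 took 98.5% of the coding pair in replicate 1 and 98.1% in replicate 2, while Fcer1g-203 holds the same bases but carries no ITAM pattern in its annotated reading frame. It had 7.76 and 8.24 TPM. In the kallisto-layout table the share of Fcer1g-201 was 93.3 and 89.2%. At Trem2 the coding form Trem2-202 took 21.1 and 26.6% of the pair it makes with Trem2-201.

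Shared sequence limits how the Fc gamma receptors can be told apart. Of all 50-base stretches in the transcripts of Fcgr3, 9.58% also occur in Fcgr2b, and 2.92% of those of Fcgr2b occur in Fcgr3. No other pair of the 4 receptors shared any. The longest identical run, 129 coding bases, is printed in lower case because reads within it cannot be assigned to either gene. It lies on the minus strand across chr1:170966674-170968081 in Fcgr2b and chr1:171054167-171057792 in Fcgr3, with introns spliced out.
Fcgr2b and Fcgr3 shared run: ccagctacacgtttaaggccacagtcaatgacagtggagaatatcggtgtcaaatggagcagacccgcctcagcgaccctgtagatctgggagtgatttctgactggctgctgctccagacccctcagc

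Overlapping genes could add reads at 5 of the 10 genes, since no source used here gives the strand setting. Lyn is overlapped on the other strand by the long intergenic RNA Gm26857, with 5364 and 4628 counts beside 5931 and 6402 for Lyn itself, by the pseudogene entries Gm11805 and 9430025C20Rik, with 287 and 253 counts and 239 and 252 counts, and by Gm22781, with 0 and 1 count. The antisense gene Gm38204 at Fcgr2b had 1 count in replicate 1 and 2 in replicate 2. Mir6546 at Fcgr3, Gm26110 at Fcgr4 and Gm27361 at Plcg2 had 0 to 3 counts. For these 4 genes the overlapping entries therefore held few reads. At Lyn they held more, but only the positions of whole genes were compared. Shared exon bases were not examined, so whether any of these reads enter the level of Lyn is not known.

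Around the 10 genes, 135 other genes of the pathway were listed in 7 groups, and all were found. Of these, 98 reached 1 TPM in both libraries and 105 had at least 10 counts in both. Of the 105, 4 were past 2-fold between the libraries on TPM, a share of 3.81% that equals the 3.81% of all detected genes. Singled out after their values were seen, they were Cd22, higher in replicate 2 (5.09 and 14.1 TPM), and Clec4n, Clec5a and Cd300lb, lower in it (22.3 and 7.83, 14.9 and 5.42, and 19.2 and 8.43 TPM). On TMM-normalised CPM 7 of the 105 (6.67%) were past 2-fold, against 3.51% of detected genes, and 3 genes were past it on both scales, Cd22, Clec4n and Clec5a. There Cd300lb had -0.69, while Fcgrt, Itpr1 and Klrk1 were past it upwards and Txk downwards, so the split turned from 1 higher and 3 lower to 4 higher and 3 lower. By mean TPM 44 of the 135 were above Plcg2, and Lilrb4a and Sirpa were above Fcer1g.

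Other Fc receptors were few. Of 14 listed, 5 reached 1 TPM in both libraries, led by Trim21, the cytosolic antibody receptor (36.3 ± 3.92 TPM, SD, n = 2). Fcgrt, the neonatal Fc receptor that recycles IgG, had 18.4 ± 5.81 TPM, and Fcrls 5.69 ± 2.01 TPM. The IgE receptor chains that also pair with the gamma chain were at or near 0, Fcer1a with no count and Ms4a2 at 0.0650 ± 0.0354 TPM.

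Of the 29 other receptors listed around FCER1G and DAP12, 19 reached 1 TPM in both libraries, and their levels spanned a wide range. Csf1r, the receptor for the growth factor CSF1, is itself a tyrosine kinase and had 436 ± 123 TPM, and the lectins Clec4e (Mincle) and Clec4d had 267 ± 98.2 and 71.9 ± 26.0 TPM. Clec7a, the beta-glucan receptor Dectin-1, which carries its own motif, had 15.6 ± 6.25 TPM. Trem1, the amplifying relative of Trem2, had 0.110 and 0.0200 TPM, far below the 101 and 87.9 TPM of Trem2.

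The ITAM genes of lymphocytes and their relatives were at or near 0 apart from Hcst and Cd79b. Of 8 listed, Hcst, which encodes the adaptor DAP10 and carries no ITAM itself, reached 1 TPM in both libraries, with 1.21 and 3.11 TPM. These values rest on only 5 and 17 expected counts, so Hcst does not meet the limit of 10 counts in both libraries. Next by mean TPM were Cd79b (1.10 ± 0.580 TPM, from 30 and 16 counts) and Cd247 (0.185 ± 0.0636 TPM). Zap70, the T cell relative of Syk, had 0 and 0.0400 TPM. It lay far below Syk, with 199.8 and 171 TPM.

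Among other Src and Tec family kinases, 5 of 12 reached 1 TPM in both libraries. The Tec kinases Tec and Btk, which activate phospholipase C gamma, had 22.4 ± 2.57 and 19.2 ± 4.19 TPM, and the myeloid kinase Fgr had 1.33 ± 0.481 TPM.

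Of the downstream adaptors and effectors, 40 of 42 genes were at 1 TPM in both libraries, with a median of 30.4 ± 0.923 TPM. Fyb, an adaptor that links to the cytoskeleton, had 478 ± 58.1 TPM, Pik3ap1, an adaptor of PI3 kinase, 253 ± 10.5 TPM, and the GTPase Cdc42 151 ± 62.0 TPM. Card9, which carries SYK signals to NF-kB, had 20.2 ± 6.24 TPM.

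Inhibitory receptors other than Fcgr2b were abundant, with 15 of 16 at 1 TPM in both libraries and a median of 37.1 ± 8.40 TPM. Lilrb4a had 1435 and 899.9 TPM. Sirpa, the receptor for the self signal CD47, had 971 and 1033 TPM, and Pirb 287 ± 10.8 TPM. The libraries of Lilrb4a and Sirpa overlapped, and both stood above every value of Fcgr2b. Lilrb4a, Pirb and Sirpa belong to families with near-identical members, so reads may be split among those.

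Intracellular brakes reached 1 TPM in both libraries for 13 of 14 genes, with a median of 24.4 ± 0.304 TPM. Inpp5d, the lipid phosphatase SHIP1 that FcγRIIB recruits, had 93.7 ± 17.0 TPM. The tyrosine phosphatase Ptpn6 (SHP-1) had 83.2 ± 17.8 TPM, and Csk, which restrains Src kinases, 64.3 ± 15.5 TPM. All 3 were above Plcg2 and below Fcgr2b and Syk in both libraries.

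**Figure D5:**
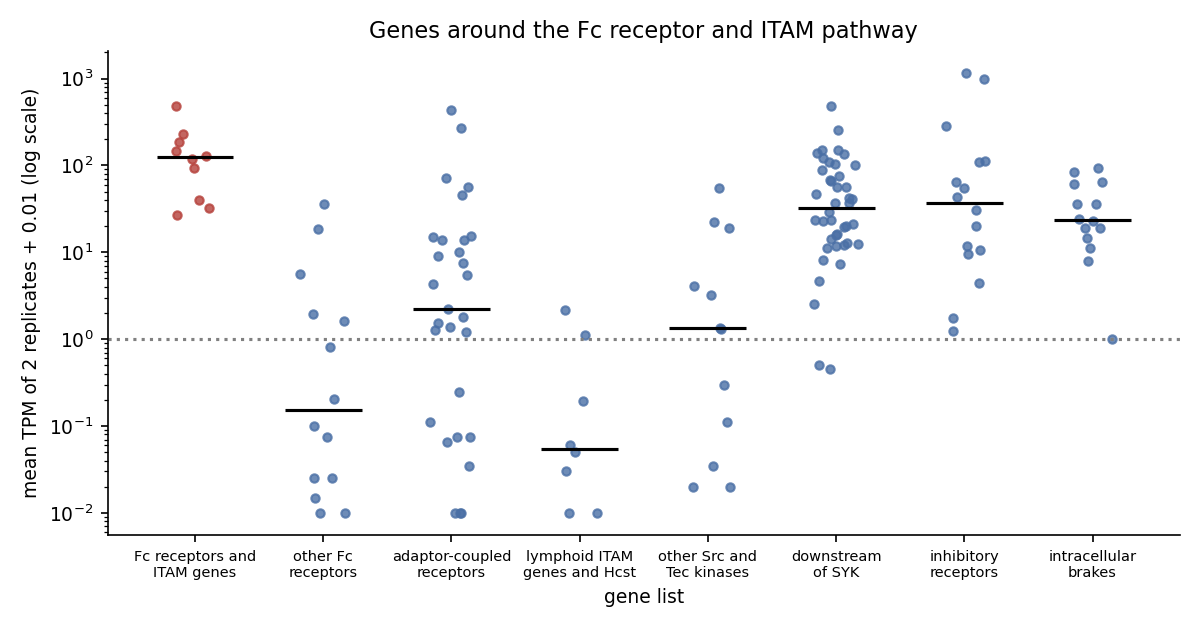
Mean TPM of 2 replicates plus 0.01, on a log scale, for the 10 genes and the 7 groups of other pathway genes, with a point per gene, a bar at each median and a dotted line at 1 TPM. The 10 genes, downstream effectors, inhibitory receptors and intracellular brakes lie mostly above the line, and other Fc receptors and lymphoid ITAM genes mostly below it.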

How the data were processed

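Nucleoplasmic total RNA was read from 3 tables per library. The deposited expected counts and TPM, with a posterior mean TPM, were made by the authors from transcriptome alignments to mm10 with GENCODE M21, per the deposited file notes, and have the layout RSEM writes. A further deposited table in the layout of kallisto holds estimated counts and TPM made directly from reads. The sources used here give neither the programs nor the strand setting.

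From these, levels, shares and ratios were computed per library with Python 3.11.15, numpy 2.4.6, pandas 2.3.3 and scipy 1.17.1, and plotted with matplotlib 3.10.9. Detected means at least 10 expected counts in both libraries. The pseudocount of 1 understates changes of low genes. Expected counts were rounded for TMM factors (edgeR 4.0.16) and DESeq2 1.42.0 size factors in R 4.3.3. With 1 group of 2, no model was tested. Rows that name no gene, 0.282 and 0.0640% of counts in replicates 1 and 2, were left out. The ratio step was tried only on simulated counts, scaled to CPM, with planted changes and an assumed spread. That does not test the TPM ratios of these libraries.

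TPM depends on an effective length, so short RNAs gain weight, and an intron counts only where a transcript holding it is annotated. The limit for a gene with no count is 3 counts, or 1.49e-05% and 1.53e-05% of the libraries.

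The 10 genes and the lists were chosen with earlier results of these data known. Named were the 10 genes, the 3 highest genes of each list, 14 preset genes, genes overlapping the 10, the 2 highest transcripts of each and intron-retaining transcripts with a mean of at least 1 TPM. A gene and a sequence under these rules are not reported here.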

Additional observations from a re-analysis of the deposited data

How the results depend on the processing

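Absolute levels depend on the table: the median of the 10 genes was 47.0 TPM in the kallisto-layout table, 420.4 TPM after rescaling TPM to a fixed total over protein-coding genes and 374 TPM after rescaling the kallisto-layout table likewise. The kallisto-layout ratio of the libraries shifted by -1.57 for the median gene, and there 8 of the 10 genes were past 2-fold, all lower in replicate 2, against 78.4% of genes. The number past 2-fold was 2 with TMM (3.51% of genes), 1 with DESeq2 size factors (7.38%), 2 in the rescaled kallisto-layout table (4.56%) and 1 with rescaled TPM (6.11%, chosen after seeing the data), and 2 at 1.5-fold (20.4%). It was 0 with posterior mean TPM (3.19%) and with a pseudocount of 0.1 (9.51%). Other pathway genes past 2-fold were 4 on TPM and 7 with TMM, and macrophage markers 2 and 0, chosen after seeing the data. Activating over inhibitory receptors was 1.05 over coding transcripts, where noncoding Fcgr2b forms drop out. Adaptors over receptors reversed to -1.03 by counts not divided by length. Other pathway genes at 1 TPM in both libraries, 98 on TPM, were 87 in the kallisto-layout table and 114 after rescaling it, and 105 had 10 counts. Posterior mean TPM put all 10 levels lower, 8 of them within the SD. The coding share was 82.7% by counts and 76.3% in the kallisto-layout table.

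With either replicate left out, the median was 105 to 132 TPM, activating over inhibitory receptors -0.52 to 0.32, adaptors over receptors 0.72 to 1.18, the coding share 80.1 to 81.4%, and other pathway genes at 1 TPM 100 to 102. No paired analysis was possible because there is 1 group. With 2 libraries, spreads have 1 degree of freedom, and the cause of these shifts was not tested.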
